A study of Homo sapiens with 18 samples.

Results

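The response of KO2 cells to 4 h of MK2206 was measured by RNA-seq. KO2 is a GPS2 knockout line of MDA-MB-231, a human triple negative breast cancer cell line, and MK2206 is an allosteric inhibitor of the kinase AKT. The treated group (KO2+MK, 10 µM for 4 h) and the untreated group (KO2) held 3 libraries each, 6 of the 18 libraries in the series, and every gene with at least 1 CPM (a count scaled to the library total) in at least 3 of the 18 libraries was kept, which gave 15587 of 57448 genes. Both groups carry the same modification. Cas9 and guides against exons of GPS2 were delivered by lentivirus, cells were selected with puromycin, and the line was kept as a heterogeneous pool and not as a clone, so that edited and unedited alleles can lie side by side in it. Treated cells were set against cells labelled untreated, and no vehicle is named for them, so the inhibitor and its solvent cannot be told apart. The other groups of 3 were the parental cells (WT), a 2nd knockout pool without and with the same treatment (KO1 and KO1+MK), and cells with membrane-anchored AKT1 (myrAKT). The comparison asks which transcripts of the knockout cells depend on AKT activity within hours.

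AKT is activated downstream of receptor tyrosine kinases and PI3-kinase. Among its substrates are the FOXO transcription factors, which AKT phosphorylation keeps out of the nucleus, and regulators of mTORC1, which controls protein synthesis and the making of ribosomes. The FOXO factors are known to raise transcripts of receptors and adaptors of the same pathway, which are held low while AKT is active. Immediate early genes such as EGR1 and FOS answer growth factor signals through the ERK kinases and serum response factor. Metallothioneins bind zinc and copper ions and are switched on by the zinc sensor MTF1, which binds metal response elements in their promoters.

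Promoter sequences of genes that changed are given here, since short motifs of the factors named above can be read in some of them. RefSeq promoters (GRCh38.p14, 250 bases before to 50 after the annotated start) were matched by symbol for 11023 of the tested genes. Only bases before the start are printed, 5′ to 3′ on the strand of the gene, and each motif was searched on both strands. Capitals mark the metal response element core (TGCACNC or TGCGCNC) in the first 3 sequences, which belong to a pair of metallothioneins and to the zinc exporter SLC30A1.
MT2A, chr16:56608404-56608583, plus strand: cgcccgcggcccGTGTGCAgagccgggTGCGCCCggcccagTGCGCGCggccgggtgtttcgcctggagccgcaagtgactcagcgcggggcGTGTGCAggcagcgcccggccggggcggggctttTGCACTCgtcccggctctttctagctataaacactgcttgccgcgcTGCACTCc
MT1X, chr16:56682310-56682429, plus strand: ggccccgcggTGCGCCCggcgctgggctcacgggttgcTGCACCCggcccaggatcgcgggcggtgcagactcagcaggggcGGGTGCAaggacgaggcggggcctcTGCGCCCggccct
SLC30A1, chr1:211579162-211579251, minus strand: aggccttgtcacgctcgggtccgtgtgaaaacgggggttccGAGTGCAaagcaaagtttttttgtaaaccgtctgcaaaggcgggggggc
In the whole window of 300 bases, MT2A held 8 matches, MT1X 4 and SLC30A1 2. A single match was common, in 38.7% of all 11023 promoters, whereas 3 or more matches stood in 3.28%. Among promoters of genes called higher these shares were 36.4% and 2.67%, and among those called lower 34.4% and 2.26%, so the element was no more frequent there.

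The CArG box, the binding motif of serum response factor, is capitalised in EGR1, the FOXO core (GTAAACA) in TXNIP and BCL2L11, the TEAD core (GGAATG) in CCN2, and the cyclic AMP response element (TGACGTCA) in DUSP1. The last 2 genes are shown because their response differed most clearly between the knockout pools.
EGR1, chr5:138465359-138465458, plus strand: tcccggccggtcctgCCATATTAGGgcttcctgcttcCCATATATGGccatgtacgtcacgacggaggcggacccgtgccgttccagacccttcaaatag
TXNIP, chr1:145996610-145996729, minus strand: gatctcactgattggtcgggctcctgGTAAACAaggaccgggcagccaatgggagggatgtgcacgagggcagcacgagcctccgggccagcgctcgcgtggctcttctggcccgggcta
BCL2L11, chr2:111120664-111120723, plus strand: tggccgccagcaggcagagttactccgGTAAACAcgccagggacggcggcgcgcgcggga
CCN2, chr6:131951433-131951552, minus strand: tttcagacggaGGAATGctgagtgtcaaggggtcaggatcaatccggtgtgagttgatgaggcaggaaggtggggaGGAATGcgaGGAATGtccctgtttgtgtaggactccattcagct
DUSP1, chr5:172771256-172771375, minus strand: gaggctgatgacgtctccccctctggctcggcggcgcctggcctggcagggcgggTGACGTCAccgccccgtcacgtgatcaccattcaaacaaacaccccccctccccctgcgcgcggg
The FOXO core was found in 2.3% of all promoters, in 15 of the 561 promoters of genes called higher (2.67%) and in 3 of the 221 of genes called lower (1.36%). A CArG box stood in 1.11% of all promoters, in 1.25% of those called higher and in 2.26% of those called lower. Of the 11 matched promoters of immediate early genes called higher, that of EGR1 was the 1 that held it. The cyclic AMP response element stood in 3.27% of all promoters in 3.92% of those called higher and in 2.26% of those called lower. The TEAD core, of 6 letters, stood in 10.9% of all promoters and of those called higher, and in 13.6% of those called lower. These matches describe the letters in the window and do not show that a factor binds there.

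The 6 libraries differed in depth, with 27544978 to 29939536 counts on genes in the treated and 35627965 to 39027425 in the untreated libraries. Mitochondrial genes took 1.43 to 1.59% of the counts in treated and 1.62 to 1.72% in untreated libraries. The 8 markers of MDA-MB-231 cells, among them VIM, CD44 and AXL, were all above 100 CPM on average in both groups, with a summed level of 5486 to 5740 CPM before and 4885 to 5185 CPM after treatment, and none was called. The leukocyte markers were at or near background, with only CD14 of 6 tested, at 0.44 to 0.74 CPM. Of 4 endothelial markers 3 were tested, with PECAM1 the highest at a mean of 3.98 CPM before and 3.01 CPM after treatment. Their summed level was 5.08 to 6.07 CPM before and 3.89 to 4.44 CPM after treatment, none was called, and their part in the results was not tested. Of the luminal markers, PGR and CDH1 fell below the filter. GPS2 itself stood at 5.90, 6.09 and 6.13 CPM in untreated and 6.16, 5.91 and 5.59 CPM in treated cells (log2 fold change -0.02, adjusted p = 0.877), and at 4.57 CPM in WT. Its level therefore does not check the knockout, which edits the gene without having to lower its RNA, and an overlapping gene on the same strand can share its reads. AKT1 did not pass the test either (133 and 130 CPM, log2 fold change -0.02, adjusted p = 0.811).

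A gene was called when the adjusted p was at most 0.001 and the fold change at least 1.5. By this rule 1100 of the 15587 tested genes were called (7.06%), of which 764 rose, 4.9% of those tested, and 336 fell, 2.16%. By the adjusted p alone, 2047 genes were higher (13.1%) and 1369 lower (8.78%), and 53.4% of all genes had an unadjusted p under 0.05. At least 2-fold changes were seen for 270 rises and 90 falls, and at least 4-fold changes for 34 rises and 5 falls. Treated and untreated libraries did not overlap for any called gene, but the same was true of 26.2% of all tested genes in the upward and 29.2% in the downward direction. The median log2 fold change over all tested genes was -0.01. Changes in level were relative to the library total, and a change in RNA per cell would not be seen.

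**Figure D1:**
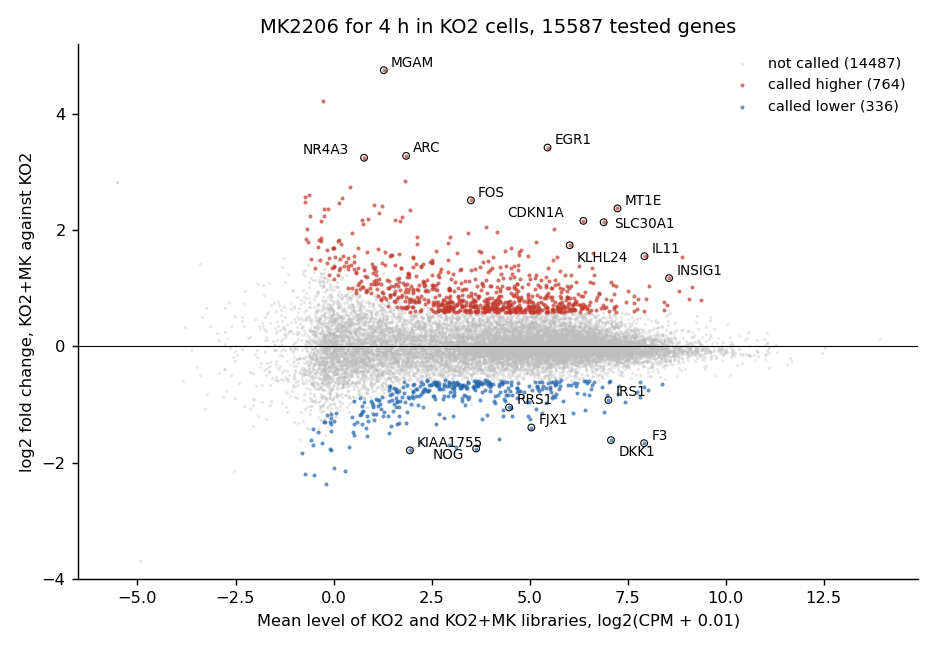
Log2 fold change of KO2+MK against KO2 (vertical axis) plotted against the mean level of the 6 libraries on a log2 CPM axis, 1 point a gene. Of 15587 tested genes, 764 were called higher and 336 lower, and among those that averaged 100 counts or more in the higher group the extremes were MGAM at 4.75 and KIAA1755 at -1.79.

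The 3 treated libraries did not respond to the same extent. KO2+MK replicate 1 was the treated library nearest to the untreated ones for 621 of the 764 rises (81.3%) and for 238 of the 336 falls (70.8%). Replicate 3 was the farthest for 617 rises (80.8%) and 219 falls (65.2%). Against the mean of the untreated libraries, the median difference of the called rises was 0.70 on the log2 scale in replicate 1, 0.81 in replicate 2 and 0.91 in replicate 3, and that of the falls -0.70, -0.81 and -0.89. Among the untreated libraries, each was the nearest to the treated ones for 29.7 to 37.8% of the rises and for 21.1 to 43.2% of the falls. Without replicate 1, 1226 genes were called, and without replicate 3, 839. In KO1+MK, it was replicate 1 that lay farthest from the untreated cells, for 329 of 515 rises (63.9%). The part of dosing, timing or handling in this spread was not tested.

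Among called genes that averaged 100 counts or more in the higher group, the 12 largest rises were led by MGAM, an intestinal maltase-glucoamylase, and by immediate early genes. MGAM was nearly silent in untreated cells, at 0.14, 0.15 and 0.22 CPM, and reached 2.36, 5.19 and 6.47 CPM in treated cells (log2 fold change 4.75 ± 0.41, SE; adjusted p = 4.08e-07). EGR1, a zinc finger transcription factor, went from 7.59, 7.76 and 7.44 CPM to 54.3, 71.3 and 115 CPM (3.42 ± 0.22, adjusted p = 2.29e-08). The groups were far apart for both genes, while the treated libraries themselves spread over more than 2-fold. ARC, an immediate early gene best known from neurons, rose by 3.28 on the log2 scale, UNC5B, a netrin receptor, by 2.85, and NOTCH3, a Notch receptor, by 2.30. DRP2, AOC3 and MAFA rose by 2.43, 2.41 and 2.35, each from under 2 CPM. ZNNT1, the remaining gene of this set beside FOS, MT1E and ID4, which are described with their groups, rose by 2.17.

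By the same rule, the 12 largest falls held both protein-coding genes and long noncoding RNAs. F3, tissue factor, the trigger of blood coagulation, fell from 383, 360 and 365 CPM to 128, 113 and 104 CPM (-1.67 ± 0.06, adjusted p = 8.29e-11). DKK1, a secreted inhibitor of WNT receptors, fell from 202, 198 and 212 CPM to 79.6, 61.4 and 56.0 CPM (-1.61 ± 0.08, adjusted p = 4.08e-09). NOG, the BMP antagonist noggin, fell from 19.6, 18.9 and 19.1 CPM to 6.36, 5.08 and 5.36 CPM (-1.76 ± 0.08, adjusted p = 1.96e-09). No treated library came near an untreated one for these 3 genes. KIAA1755 and CCDC8 fell by 1.79 and 1.70 on the log2 scale. FJX1 and FANCF, a member of the Fanconi anaemia DNA repair complex, also fell, with values of -1.40 and -1.32. Of the long noncoding RNAs, MIR503HG, the host of a microRNA cluster, changed by -1.65, SH3TC2-DT by -1.37, GAS6-AS1 by -1.33 and RGMB-AS1 by -1.32. Whether the counting used strand is not given in the sources used here, so reads of the last 2 cannot be told apart from those of the opposite gene. On that opposite strand, GAS6 had a value of -0.22 and RGMB of 0.25.

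**Figure D2:**
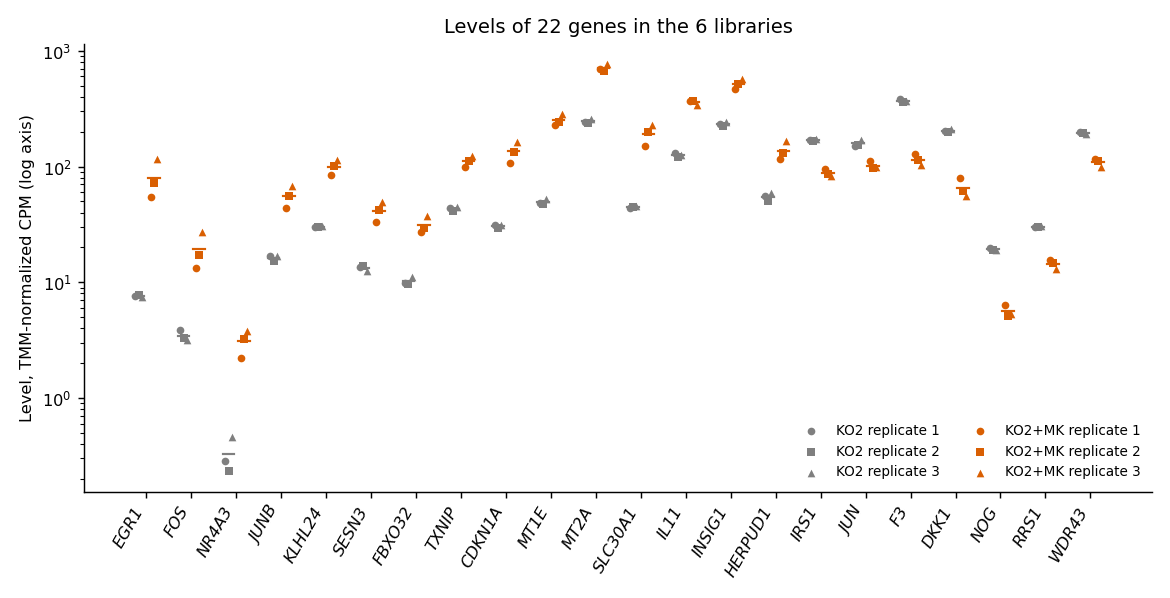
Level of 22 genes in each of the 3 KO2 libraries (grey) and the 3 KO2+MK libraries (orange) in TMM-normalized CPM on a log axis, with a marker shape for each replicate number and a line at the group mean. All genes shown were called, and no called gene overlaps between the groups, nor do 26.2% of all tested genes upward and 29.2% downward. For EGR1 the treated libraries run from 54.3 to 115 CPM while the untreated ones lie between 7.44 and 7.76 CPM.

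Of 32 tested FOXO factors and targets, 15 were called higher and 2 lower, against 4.9% and 2.16% of all tested genes, and their median log2 fold change was 0.54. KLHL24, an adaptor of a ubiquitin ligase, rose from 30.3, 29.8 and 30.7 CPM to 84.1, 101 and 113 CPM (1.74 ± 0.08, adjusted p = 2.12e-09). SESN3, a sestrin that restrains mTORC1, rose from 13.6, 13.8 and 12.6 CPM to 33.4, 41.9 and 49.5 CPM (1.66 ± 0.11, adjusted p = 3.09e-08). FBXO32, the ubiquitin ligase subunit atrogin-1, rose from 9.88, 9.75 and 11.02 CPM to 27.3, 29.6 and 37.2 CPM (1.64 ± 0.10, adjusted p = 1.58e-08). In all 3 the lowest treated library lay more than 2-fold above the highest untreated one. TXNIP, which lowers glucose uptake, and BCL2L11, the proapoptotic protein BIM, rose by 1.38 and 1.05. Their promoters, shown above, were the only 2 with the FOXO core among the 13 matched promoters of members called higher, and 3 of the 27 matched in the list held it. CCNG2, an atypical cyclin, rose by 1.34, PDK4, which restrains pyruvate dehydrogenase, by 1.15, and SESN1 by 0.84. Of the factors themselves FOXO1 rose by 0.73, whereas FOXO3, with 73.2 to 75.5 CPM before and 76.6 to 83.9 CPM after treatment, did not pass (0.12, adjusted p = 0.0333). FOXO4 passed the adjusted p but not the fold (0.58). The 2 members called lower were IGFBP1, a secreted binding protein of insulin-like growth factors (-0.78), and CITED2, a transcriptional coregulator (-0.74).

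Genes upstream of AKT moved in both directions. Of 34 tested genes of the PI3K, AKT and mTOR pathway, 5 were called higher and none lower, where 4.9% and 2.16% of all genes were, and the median was 0.08. Those called were PIK3IP1, an inhibitor of PI3-kinase (1.38), TRIB1, a pseudokinase (1.00), the regulatory PI3-kinase subunits PIK3R1 (0.94) and PIK3R3 (0.71), and PHLPP2, a phosphatase that removes an activating phosphate from AKT (0.63). PIK3R1, the main regulatory subunit, went from 38.9, 38.8 and 38.3 CPM to 63.2, 73.9 and 82.7 CPM. PIK3IP1 was low throughout, at 0.66 to 0.75 CPM before and 1.68 to 2.14 CPM after treatment. AKT2 had a value of -0.15 and was not called. Of 21 tested receptor tyrosine kinases and adaptors, 4 were called higher and 1 lower, beside the same 4.9% and 2.16%, with a median of 0.05. The 2 main insulin receptor substrates parted. IRS2 rose from 76.2, 79.0 and 75.1 CPM to 134, 139 and 154 CPM (0.91 ± 0.05, adjusted p = 4.70e-09), and IRS1 fell from 171, 165 and 173 CPM to 95.9, 85.3 and 82.8 CPM (-0.93 ± 0.05, adjusted p = 3.11e-09). IRS1 was thus the more abundant of the pair in untreated cells on the CPM scale, which does not correct for length. FGFR3 (1.54), the adaptor GAB1 (0.86) and the receptor ERBB3 (0.76) were the other rises. INSR, the insulin receptor, passed the adjusted p with 0.35, and IGF1R (0.15) and EGFR (-0.13) did not.

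Of 23 tested immediate early genes, 14 were called higher and 1 lower, against 4.9% and 2.16% of all genes, and the median was 0.77. By the adjusted p alone 17 were higher and 3 lower. FOS, a subunit of the AP-1 factor, rose from 3.87, 3.27 and 3.14 CPM to 13.3, 17.3 and 27.1 CPM (2.51 ± 0.21, adjusted p = 3.25e-07). NR4A3, an orphan nuclear receptor, rose from 0.29, 0.23 and 0.46 CPM to 2.22, 3.21 and 3.82 CPM (3.24 ± 0.28, adjusted p = 4.01e-07). For both, the highest untreated library stayed below every treated one, as in 26.2% of all genes. NR4A2 rose by 1.88, JUNB by 1.80, ATF3 by 1.78 and FOSB by 1.42. MCL1, an antiapoptotic protein with a short-lived mRNA, rose by 0.95, and IER3 by 0.77. JUN, another AP-1 subunit, went the other way, from 150, 155 and 171 CPM to 111, 96.3 and 98.6 CPM (-0.62 ± 0.05, adjusted p = 3.79e-07). MYC stood at 225, 216 and 243 CPM before and 184, 160 and 146 CPM after treatment (-0.46 ± 0.06, adjusted p = 2.91e-05), which passed the adjusted p but not the fold. JUN and MYC thus lay lower in every treated library than in any untreated one, as did 29.2% of all genes. FOS and EGR1 went the other way.

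Of 18 tested feedback genes of the ERK pathway, 4 were called higher and none lower, beside 4.9% and 2.16% of all genes, with a median of 0.35. DUSP6, a phosphatase of ERK, rose from 157, 154 and 161 CPM to 249, 263 and 308 CPM (0.82 ± 0.06, adjusted p = 7.93e-08). SPRY4, an inhibitor of receptor signalling to RAS, rose from 177, 190 and 188 CPM to 303, 313 and 343 CPM (0.81 ± 0.05, adjusted p = 1.04e-08). The nuclear phosphatases DUSP1 and DUSP5 rose by 0.82 and 0.70. All 4 were separated from the untreated libraries, as were 26.2% of all genes upward, and 11 of the 18 passed the adjusted p upward, beside 13.1% of all genes. Among 7 tested ligands of the EGF family, HBEGF was the 1 called higher (0.66), beside 4.9% of all genes, from 89.7 to 95.9 CPM before to 137 to 153 CPM after treatment. NRG1 (-0.56), AREG (-0.49) and EREG (-0.40) passed the adjusted p below 0 but not the fold.

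Metallothioneins and SLC30A1, the exporter that carries zinc out of the cell, had the highest median of the 27 lists. Of 5 tested, 4 were called higher, beside 4.9% of all genes, and the median was 2.02. MT1E went from 48.8, 47.7 and 52.0 CPM to 229, 245 and 284 CPM (2.37 ± 0.07, adjusted p = 1.10e-11), one of the 2 smallest adjusted p of the comparison. MT1X went from 19.3, 17.5 and 21.7 CPM to 69.6, 73.8 and 90.9 CPM (2.02 ± 0.09, adjusted p = 1.96e-09). MT2A, the most abundant member, went from 240, 238 and 259 CPM to 695, 664 and 764 CPM (1.54 ± 0.05, adjusted p = 5.20e-11). Their spread among the treated libraries was small beside the rise. SLC30A1 went from 43.7, 44.3 and 45.3 CPM to 151, 198 and 227 CPM (2.13 ± 0.10, adjusted p = 2.55e-09). MT1A had at most 2 counts in any of the 6 libraries and is not described by a fold. MTF1, the zinc sensor itself, rose from 30.5, 29.3 and 29.8 CPM to 48.3, 52.0 and 56.8 CPM (0.83 ± 0.06, adjusted p = 4.95e-08), and was looked up after the values of the list were seen. The metallothionein genes lie side by side on chromosome 16 and are similar in sequence, so reads can be shared between them, which does not hold for SLC30A1 on chromosome 1. No zinc or metal treatment is named for these cells.

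CDKN1A, the cyclin-dependent kinase inhibitor p21, was the single gene called among 21 D and E cyclins and CDK inhibitors, a share near the 4.9% of all genes called higher. It rose from 31.1, 29.6 and 31.1 CPM to 108, 133 and 164 CPM (2.16 ± 0.11, adjusted p = 2.71e-09), while the median of the list was 0.03. The sign of that median changed with the scaling and with the omission of single libraries. CCND1, cyclin D1, which drives entry into S phase, passed the adjusted p but not the fold, from 780 to 798 CPM before to 593 to 633 CPM after treatment (-0.35). CDKN1B, a known FOXO target, had a value of 0.32. None of 42 DNA replication genes and none of 37 mitosis genes was called, where 4.9% of all genes were called higher and 2.16% lower. Their medians were -0.14 and -0.13, and 4 of the 42 and 5 of the 37 lay above 0. The adjusted p was passed below 0 by 8 of the 42 and 8 of the 37, beside 8.78% of all genes. Above 0, ORC6 (0.36) and PCNA (0.17) passed it for replication and CDC25C (0.26) for mitosis. The lowest were UHRF1 (-0.49), PRIM1 (-0.44) and POLA2 (-0.42) for replication and KIF23 (-0.39), CDC20 (-0.35) and ECT2 (-0.31) for mitosis. MKI67, a proliferation marker, had a value of -0.14 (adjusted p = 0.0511).

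Genes of ribosome biogenesis lay below 0 with a single exception, mostly by small amounts. Of 44 tested, 5 were called lower, beside 2.16% of all genes, and none higher. By the adjusted p alone 28 were lower, beside 8.78% of all genes, 1 lay above 0, and the median was -0.26. RRS1, an assembly factor of the large subunit, fell from 29.9, 29.9 and 30.6 CPM to 15.6, 14.5 and 12.9 CPM (-1.05 ± 0.06, adjusted p = 1.66e-08). WDR43, part of the small subunit processome, fell from 200, 194 and 192 CPM to 116, 112 and 99.9 CPM (-0.82 ± 0.05, adjusted p = 8.96e-09). These 2 showed the clearest separation, and NOB1 (-0.62), POLR1B, a subunit of RNA polymerase I (-0.61), and BYSL (-0.59) were the other 3 called. NOB1 fell short of the fold without KO2+MK replicate 3. RRN3, an initiation factor of RNA polymerase I, was the member above 0 (0.25). The 77 cytosolic ribosomal protein genes had a median of -0.10, and 1 of them, RPL36A, was called (-0.77), beside 2.16% of all genes, at 5.26 to 7.30 CPM before and 3.22 to 3.77 CPM after treatment. This call was lost without each of 4 libraries. Of 17 snoRNA host genes 1 was called higher, SNHG7 (0.66), a share near the 4.9% of all genes, and SNHG16 had a value of -0.50.

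**Figure D3:**
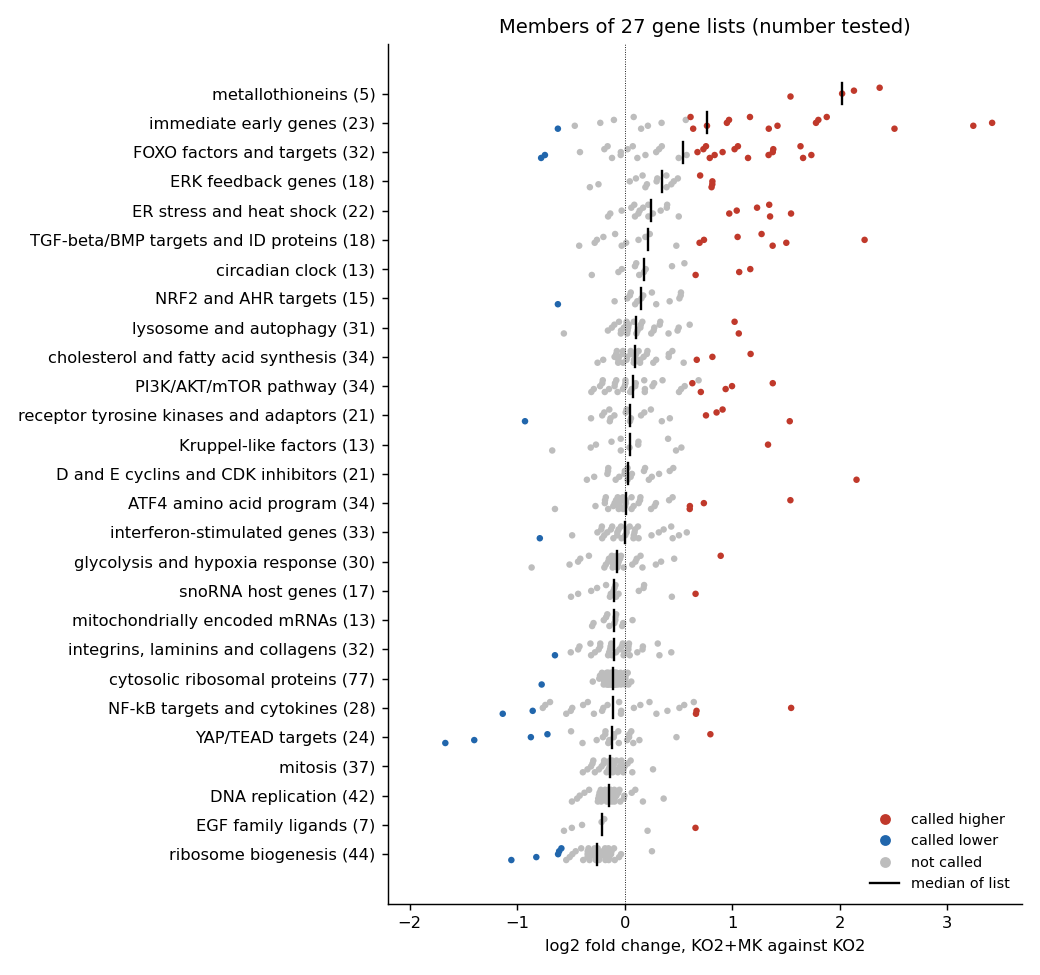
Log2 fold change of KO2+MK against KO2 for every tested member of 27 gene lists (1 point a gene), with the list median as a black bar and called genes in colour. The metallothionein median lies at 2.02 and that of ribosome biogenesis at -0.26, and MT1A, with almost no counts, falls outside the axis.

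Targets of YAP and TEAD, transcription factors that answer to cell shape and contact, were mixed. Of 24 tested, 4 were called lower and 1 higher, where 2.16% and 4.9% of all genes were, with a median of -0.12. The 4 were F3, FJX1, AJUBA (-0.87) and TGFB2 (-0.72). AJUBA, a LIM protein of cell junctions, fell from 307, 285 and 292 CPM to 171, 157 and 148 CPM. CCN2, a matricellular protein and a classic YAP target, rose from 494, 478 and 484 CPM to 850, 827 and 822 CPM (0.80 ± 0.03, adjusted p = 1.92e-09). Its relative CCN1 went the other way, from 1245 to 1341 CPM before to 759 to 1087 CPM after treatment (-0.50, adjusted p = 2.48e-04), short of the fold. ANKRD1, another common target, had a value of -0.39. CCN2 and CCN1 were thus separated from their untreated libraries in opposite directions, as were 26.2% of all genes upward and 29.2% downward.

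Of 18 TGF-beta and BMP targets and ID proteins, 7 were called higher and none lower, beside 4.9% and 2.16% of all genes, with a median of 0.21. ID4, a dominant negative partner of basic helix-loop-helix factors, rose by 2.23, from 0.77 to 1.45 CPM before to 4.07 to 7.30 CPM after treatment. ID2 rose by 1.38, whereas ID1 and ID3 had values of -0.03 and -0.09. The inhibitors BAMBI and SMAD7 rose by 1.27 and 1.05, the corepressor SKI by 0.74, and PMEPA1 by 0.70. BMP2 was called with 1.5 from under 1 CPM, and this call was lost in DESeq2, after thinning and without each of 5 libraries. IL11, a cytokine of the IL6 family, led the 28 tested NF-kB targets and cytokines, of which 3 were called higher and 2 lower, beside the same shares. It rose from 131, 120 and 125 CPM to 371, 372 and 344 CPM (1.55 ± 0.04, adjusted p = 1.10e-11), with replicate 3 the lowest of the treated libraries, as for 28 of the 764 rises (3.66%). NFKBIE and REL rose by 0.66 and 0.67. CSF2 and CCL2, a growth factor and a chemokine of myeloid cells, fell by 1.13 and 0.85 from levels under 10 CPM, and the call of CSF2 was lost without KO2 replicate 1 or KO2+MK replicate 2. Of 33 interferon-stimulated genes 1 was called lower, IFIT5 (-0.79), a share near the 2.16% of all genes, and the median was 0.01, with a sign that depended on the scaling.

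Stress and nutrient genes rose in part. Of 22 genes of ER stress and heat shock, 6 were called higher and none lower, where 4.9% and 2.16% of all genes were, with a median of 0.24. ERN1, the ER stress sensor IRE1, rose from 16.2, 15.6 and 16.5 CPM to 40.2, 45.0 and 54.3 CPM (1.55 ± 0.09, adjusted p = 8.13e-09). HERPUD1, a part of ER-associated degradation, rose from 55.2, 50.8 and 58.6 CPM to 115, 130 and 167 CPM (1.34 ± 0.10, adjusted p = 7.61e-08). DNAJB9, an ER chaperone partner, rose by 1.35. The major ER chaperone HSPA5 passed the adjusted p but not the fold (0.50). The cytosolic chaperone genes DNAJB1 and HSPA1B rose by 1.04 and 1.23. HSPA1A rose by 0.97, but it is nearly identical to HSPA1B, and its reads can be split between the copies. Of 34 genes of the ATF4 amino acid program, 4 were called higher, against 4.9% of all genes, with a median of 0.01. SESN2, a sestrin, rose by 1.54, CTH by 0.74, ATF4 by 0.61 and DDIT3 by 0.61, and DDIT3 fell short of the fold with upper-quartile scaling and without KO2+MK replicate 3. ASNS, a common marker of this program, had a value of 0.15 and did not pass.

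In lipid synthesis, 3 of 34 genes were called higher and none lower, against 4.9% and 2.16% of all genes, with a median of 0.09. INSIG1, the ER protein that retains the SREBP complex, rose from 235, 225 and 240 CPM to 470, 517 and 571 CPM (1.17 ± 0.06, adjusted p = 2.32e-09). No treated library overlapped an untreated one, as in 26.2% of all genes upward. IDI1, an enzyme of isoprenoid synthesis, rose by 0.67, and fell short of the fold without KO2+MK replicate 3. The abundant enzymes FASN (0.14), SCD (0.11) and ACLY (-0.02) did not pass. In glycolysis, 1 of 30 was called higher, beside 4.9% of all genes, the glucose transporter SLC2A3 (0.89), while SLC2A1, its more abundant relative, had a value of -0.43. Of 31 lysosome and autophagy genes 2 were called higher, a share near the 4.9% of all genes, namely ULK1, the kinase that starts autophagy (1.06), and GABARAPL1 (1.02). Of 13 clock genes 3 were called higher, again beside 4.9%, with PER1 at 1.17, CRY2 at 1.07 and BHLHE40 at 0.66. Of 13 Kruppel-like factors 1 was called higher, a share near the 4.9% of all genes, namely KLF9 (1.33), at 3.35 to 4.10 CPM before and 8.95 to 10.4 CPM after treatment. Of 32 integrin, laminin and collagen genes 1 was called lower, LAMA5 (-0.65), a share near the 2.16% of all genes. Of 15 NRF2 and AHR targets 13 lay above 0, with a median of 0.16, and none was called higher. By the adjusted p alone 3 were higher, beside 13.1% of all genes. CYP1A1 was the 1 called lower (-0.62), beside 2.16% of all genes. This call was lost in DESeq2, in the fit of all 18 libraries and without each of 5 libraries. None of the 13 mitochondrially encoded mRNAs was called. Of the luminal markers, FOXA1 rose by 1.06 and GATA3 fell by 1.04 on the log2 scale, both below 9 CPM in each of the 6 libraries.

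The called genes are described here by kind, length and level. Long noncoding RNAs made up 10.1% of the tested genes, 5.1% of the rises (39) and 20.8% of the falls (70). Among protein-coding genes, the median span from first to last exon was 20.6 kb for the 248 called lower and 36.7 kb for the 673 called higher, against 34.4 kb for all 12685 tested. The median mature transcript was 3.25 kb for the falls and 4.33 kb for the rises, against 3.42 kb. Single-exon genes were 9.68% of the protein-coding falls and 2.08% of the rises, against 2.22%. Among long noncoding RNAs, single-exon genes were 38.5% of the rises and 22.9% of the falls, against 26.0% of those tested. Their median spans were 4.22, 6.18 and 6.85 kb, so both measures went the other way between rises and falls. Their median mature transcript went the same way as in protein-coding genes, with 2.29 kb for the rises and 1.40 kb for the falls, against 1.60 kb. The median level in untreated cells was 11.6 CPM for the protein-coding rises and 16.2 CPM for the falls, against 31.2 CPM. These medians describe the called genes, and the part of transcript length and level in what passed the test was not tested.

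The same treatment of KO1, which shares no library with this comparison, gave 781 calls (5.01%), made up of 515 rises (3.3% of the genes tested) and 266 falls (1.71%). Of the 764 rises in KO2, 760 had the same sign in KO1 and 436 were also called there, 57.1% of the KO2 rises and 84.7% of the KO1 rises. Of the 336 falls, 333 had the same sign and 202 were called, 60.1% of the KO2 falls and 75.9% of the KO1 falls. No gene was called in opposite directions. Across all 15587 genes, which are not independent, the log2 fold changes of the pools had a Pearson r of 0.82 and a Spearman rho of 0.81, and r was 0.91 over the 11987 genes that averaged 100 counts or more. The median of the KO2 rises was 0.84 in KO2 and 0.70 in KO1, and that of the falls -0.78 and -0.74. KO2 values chose these genes, so nothing is read from the larger KO2 medians.

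A difference between the pools was tested gene by gene. No gene passed the adjusted p and the 1.5-fold threshold for the difference in edgeR, with 1251 genes (8.03%) at an unadjusted p under 0.05, and DESeq2 called 5. The 462 genes called in KO2 and not in KO1 therefore included none with a called difference in edgeR. DESeq2 called a difference for CSF2 and MIR663AHG among them. DUSP1 and CCN2 passed the adjusted p alone (0.0128% of the genes), each with a larger rise in KO2. DUSP1 went from 93.8, 87.3 and 90.9 CPM to 154, 157 and 162 CPM in KO2 (0.82) and changed by 0.26 in KO1, a difference of 0.55 (adjusted p = 5.93e-05). CCN2 changed by 0.80 in KO2 and by 0.38 in KO1, a difference of 0.41 (adjusted p = 1.75e-04). The genes called by DESeq2 were ABTB2, MT1X, MIR663AHG, CSF2 and CSF3. CSF2, a named gene, fell by 1.13 in KO2 and had a value of 0.13 in KO1 (difference -1.27, adjusted p = 0.0169 in edgeR). MT1X had values of 2.02 and 1.43 (difference 0.60, adjusted p = 0.0473). DUSP1, CCN2 and the genes named here from DESeq2 were chosen after their values were seen.

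**Figure D4:**
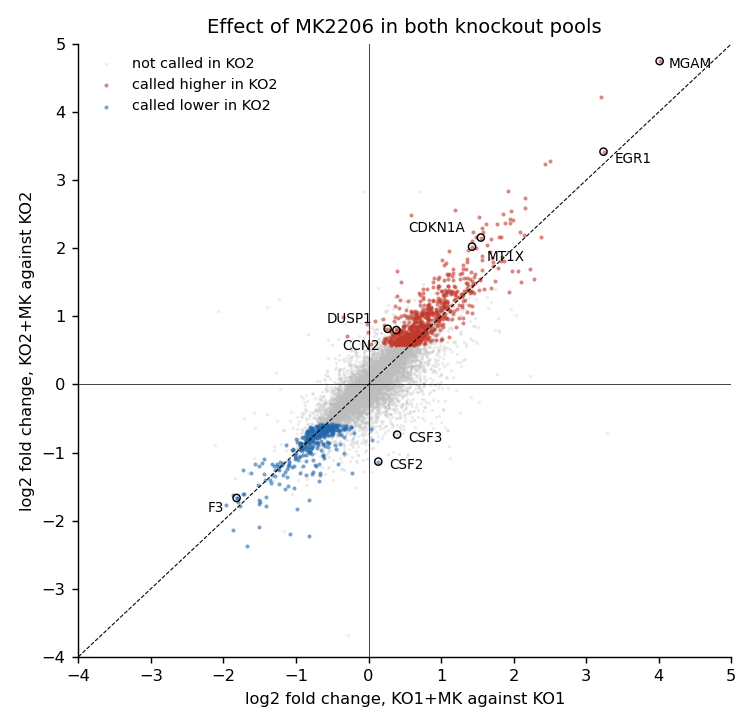
Log2 fold change with MK2206 in KO2 (vertical axis) against that in KO1 (horizontal axis) for 15587 genes, coloured by the call in KO2, with the line of equal change dashed. Of the genes called in KO2, 760 of 764 rises and 333 of 336 falls have the same sign in KO1, DUSP1 and CCN2 lie above the dashed line, and CSF2 lies at -1.13 in KO2 and 0.13 in KO1.

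Levels in the other groups give the range in which these changes lie. EGR1 averaged 14.8 CPM in WT, 9.07 CPM in KO1, 7.60 CPM in KO2 and 14.8 CPM in myrAKT cells, against 84.4 CPM in KO1+MK and 80.2 CPM in KO2+MK. The treated levels of EGR1, MT1E and IL11 were thus above those of all untreated groups. CDKN1A averaged 55.7 CPM in WT, 36.2 CPM in KO1, 30.6 CPM in KO2 and 94.0 CPM in myrAKT cells. It averaged 104 CPM in KO1+MK and 135 CPM in KO2+MK. SESN3 averaged 6.04 CPM in WT, 5.71 CPM in KO1, 13.3 CPM in KO2 and 45.7 CPM in myrAKT cells. Of the untreated pools only KO2 thus lay above WT on average. Treated levels of SESN3 averaged 22.2 CPM in KO1+MK and 41.6 CPM in KO2+MK. For F3 the order ran from 543 CPM in KO1 and 369 CPM in KO2 over 229 CPM in WT to 151 CPM in KO1+MK, 115 CPM in KO2+MK and 92.4 CPM in myrAKT cells. DKK1 averaged 209 CPM in WT, 241.5 CPM in KO1, 204 CPM in KO2 and 88.0 CPM in myrAKT cells. With treatment it averaged 71.7 CPM in KO1+MK and 65.7 CPM in KO2+MK. CSF2 averaged 31.3 CPM in WT, 11.2 CPM in KO1 and 3.37 CPM in KO2, so that its starting level differed between the pools. These levels are given as a description, without a test between treated cells and the other groups.

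**Figure D5:**
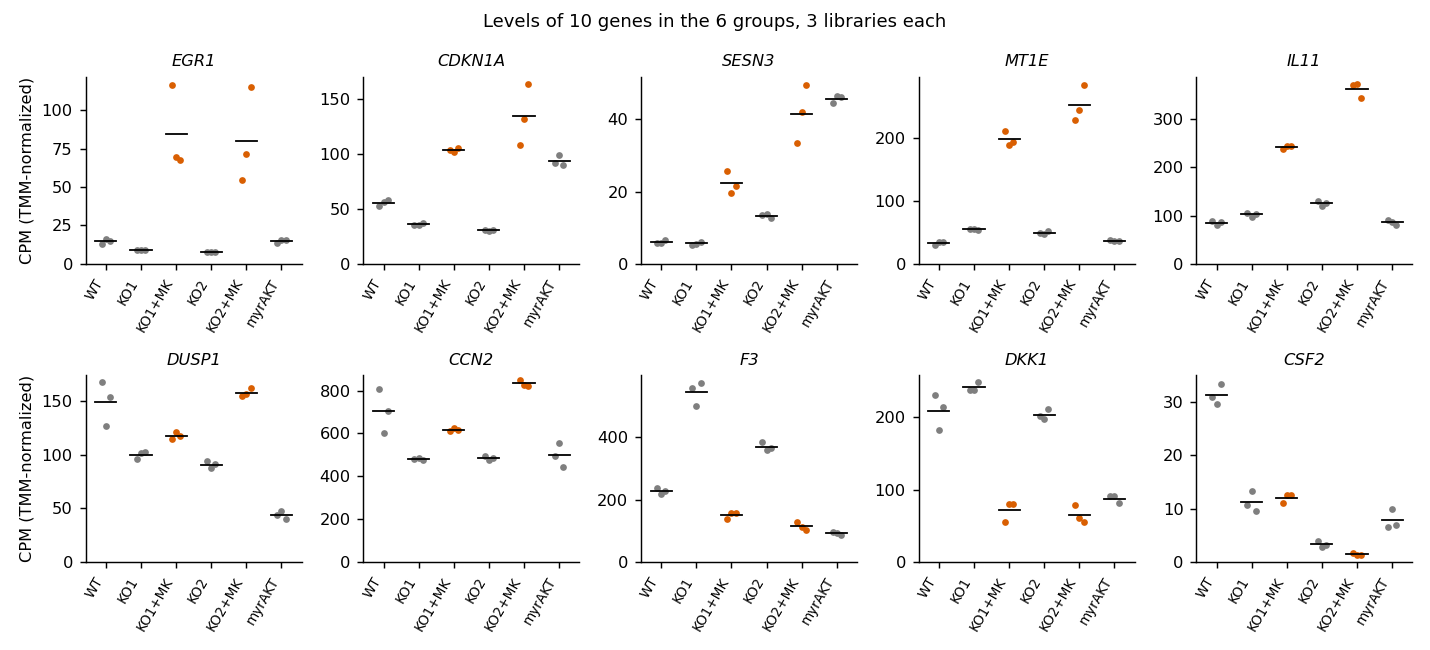
Level of 10 genes in TMM-normalized CPM (linear axis from 0) in the 6 groups of 3 libraries, with treated knockout pools in orange, the others in grey and a line at each mean. EGR1, MT1E and IL11 lie highest in the treated pools, whereas F3 averages 115 CPM in KO2+MK and 92.4 CPM in myrAKT cells.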

How the data were processed

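Ribosome-depleted RNA libraries of 6 groups of 3 samples were read in 2 NextSeq runs. The paper does not say which libraries shared a run. Per the labels and methods, the authors trimmed reads with Trim Galore, aligned them to hg38 with HISAT2 and deposited counts per Ensembl gene from featureCounts, with no normalization; versions, annotation and strand setting are not given in the sources used here. GENCODE release 44 gave symbols and positions. Counts were tested with edgeR 4.0.16 in R 4.3.3 (TMM, quasi-likelihood test, two-sided, Benjamini-Hochberg over 15587 genes), on the 6 KO2 libraries, and on 12 libraries of both pools for the difference between them. CPM values were normalized by TMM over all 18 libraries. SE was derived from the test, as the absolute log2 fold change divided by the square root of its F value. Labels do not say that replicates were separate cultures, so p-values cover the spread between libraries, which may be technical. Pairs of replicates differed by more than counting error (mean chi-square per gene 2.77 to 7.12). Named were GPS2, AKT1, the 12 called genes with the largest log2 fold change each way that averaged 100 counts or more in the higher group and did not overlap between groups, and up to 3 members of each of 27 gene lists and 4 marker lists; other members are named as examples. Members, lists, motifs and tests were chosen with earlier results of these data known. In simulated data only genes that averaged 100 counts or more in KO2 were changed, so recovery of genes with fewer counts was not measured. For KO2, 32 of 67 genes changed 1.5-fold, 66 of 67 changed 2-fold and all 66 changed 4-fold were called, with 1 of 15387 unchanged genes. For the difference between pools, 24 of 67 changed 1.5-fold, 61 of 67 changed 2-fold and all 66 changed 4-fold were called. Alternatives were DESeq2 1.42.0, other scalings, filters and thresholds, a replicate block, omission of each library, and thinning of all libraries to the shallowest total, which was added after seeing the data. Some genes past the threshold are not reported here.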

Additional observations from a re-analysis of the deposited data

Results flagged for a closer look

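The effect of MK2206 differed between the knockout pools, by the test of the difference at an adjusted p of at most 0.001 without a minimum fold, for DUSP1 and CCN2. The log2 fold change of DUSP1 in KO2 minus that in KO1 was 0.55, and that of CCN2 was 0.41. A cause for either difference was not tested.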

How the results depend on the processing

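The 1100 genes called in KO2 were 1096 by DESeq2, 1067 of them shared with edgeR, and 1063 after thinning to the shallowest library, 1024 of them shared. Without a minimum fold 3416 passed (2047 higher, 1369 lower), at an adjusted p of 0.05 1661 (613 lower), and with glmTreat against 1.5-fold 225 (179 and 46). Leaving out each library gave 839 to 1226 calls (579 to 855 higher, 257 to 371 lower), and 720 genes were called each time. Upper-quartile scaling gave 60.8% of calls upward against 69.5%. For KO1 (781) the counts were 2985 (1697 and 1288), 1359 (901 and 458) and 142 (105 and 37) under the same thresholds, 418 lower with any gene of at least 1 count, and 598 to 779 without single libraries. For the difference between pools (0) they were 5 by DESeq2 (3 higher, 2 lower), 2 without a minimum fold, 7 at 0.05 (4 and 3), 33 with at least 1 count (18 and 15) and 0 to 2 (0 to 2 higher, 0 lower) without single libraries, where the 2, CDKN1A and SLC30A1, appeared without KO2+MK replicate 1. With a replicate block 1161 genes were called in KO2 (794 higher, 367 lower), but same-numbered libraries correlated at 0.11, 0.21 and -0.10, so the numbers were not taken to pair samples.

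Alternative values of the 106 named genes came from the other fits at the main threshold, without glmTreat or changed thresholds. Of these 1588 values, 1554 kept their direction and call. In these fits 7 of 73 called genes lost the call at least once (BMP2, CSF2, IDI1, DDIT3, CYP1A1, NOB1 and RPL36A). GPS2 turned to 0.068 after thinning and ranged from -0.053 to 0.015 without single libraries, above 0 without KO2+MK replicate 3. AKT1 ranged from -0.063 to 0.031 without single libraries, above 0 without KO2+MK replicate 3 and, at 0.0035, without KO2 replicate 3. Neither was called. List medians changed sign for Kruppel-like factors, interferon-stimulated genes, the ATF4 program, D and E cyclins and luminal markers only. Since the call itself asks for an estimated fold of 1.5, genes changed by about that much can miss it whatever the depth.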
